A study of Mus musculus with 2 samples.

Results

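The acid-sensing ion channel genes Asic1, Asic2, Asic3 and Asic4 were taken by symbol from the deposited gene lists, and all 4 were present in both libraries among 39098 symbols in all. They were described in single neurons of the right trigeminal ganglion (TG), the ganglion that holds the cell bodies of the sensory neurons of the face. The cells came from male C57BL/6 mice of 5 to 8 weeks, and no genotype other than this strain was described. The control library is labelled untreated, whereas the methods of the study describe an injection of saline. The CFA library came from mice given 20 μL of complete Freund's adjuvant (CFA), mixed with saline, in the right vibrissal pad, which causes inflammation, and tissue was taken a week later. Each condition had 1 BD Rhapsody whole transcriptome library, and how many mice a library holds is not given in the sources used here. The difference between the conditions therefore has no replicate check, no p-value is given, and every interval is a 95% interval for counting error only.

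Acid-sensing ion channels (ASICs) are sodium-conducting channels of the degenerin and epithelial sodium channel family that open when the fluid outside the cell becomes acidic. A channel is a trimer of like or unlike subunits, so which subunits a neuron makes sets how the channel responds. ASIC1 and ASIC3 form acid-gated channels on their own. ASIC2 is best known as a partner that changes the properties of the others. ASIC4 forms no acid-gated channel that is known. In sensory ganglia, ASIC3 is known for its part in pain from acidic, inflamed tissue, and Trpv1, which is also opened by acid, encodes the capsaicin receptor.

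In GENCODE M21 (GRCm38), Asic1 lies on chr15:99670368-99701130 (plus strand), Asic2 on chr11:80880169-81968457 (minus strand), Asic3 on chr5:24413392-24417835 (plus strand) and Asic4 on chr1:75450436-75474343 (plus strand). Asic2 spans 1088289 bases and Asic3 4444 bases. No other annotated gene overlaps Asic1 or Asic3. Of the 6 genes that overlap Asic2, 5 had 0 UMIs (unique molecular identifiers, each standing for 1 counted RNA molecule) in neurons, and the sixth, 5530401A14Rik on the opposite strand, had 7 in control and 1 in CFA. The counts are per gene symbol, so the transcript forms of Asic1 and Asic2, which differ in their first exons, cannot be told apart.

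The sequences before the annotated starts of Asic3 and Asic1 are shown because the levels of these genes ranged most widely over the neuron classes. They were taken from RefSeq (GRCm38.p6), and capitals mark the motif matches found. Of the 4 members, 3 were in the RefSeq promoter table, with 1 start each for Asic1 and Asic3 and 2 for Asic2. The RefSeq starts of Asic3 and Asic1 lie inside the GENCODE spans of these genes. For Asic3 the printed stretch stops before the first annotated exon and holds 191 of the 250 bases before the RefSeq start.
Asic3, chr5:24413201-24413391, plus strand: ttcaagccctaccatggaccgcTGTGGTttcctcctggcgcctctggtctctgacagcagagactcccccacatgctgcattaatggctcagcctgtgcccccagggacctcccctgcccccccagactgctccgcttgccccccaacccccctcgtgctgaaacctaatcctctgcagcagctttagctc
Asic1, chr15:99691974-99692223, plus strand: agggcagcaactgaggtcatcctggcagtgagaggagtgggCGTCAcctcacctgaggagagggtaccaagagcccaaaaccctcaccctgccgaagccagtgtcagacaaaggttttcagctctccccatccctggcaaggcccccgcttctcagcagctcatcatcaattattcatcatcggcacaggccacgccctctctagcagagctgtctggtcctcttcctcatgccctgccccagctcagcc
The 250 bases before each start were searched on both strands for 4 short motifs, which do not contain each other. The core of the RUNX motif, TGTGGT, was held once by Asic3, from base -228 counted from the RefSeq start, and was found in 14.0% of 32851 such windows. A part of the cyclic AMP response element, TGACG, was held once by Asic1, on the minus strand from base -209, and was found in 17.8% of windows. The GC box, searched as GGGCGG, was found in 32.7% of windows and in none of the 4 windows of these genes. The TATA box, searched as TATAAA, was found in 12.4% of windows and also in none of the 4. A match is a description of the letters and not a binding site.

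A cell was called a neuron from at least 10 Tubb3 and 3 Snap25 UMIs. This gave 770 neurons in the control library with a median of 45930 UMIs, and 395 in the CFA library with a median of 37320 UMIs. Rbfox3, a neuronal RNA-binding protein gene not used for this, was found in 98.3% and 98.5% of them. Neurons were put into classes by raw marker UMIs. Identity gates were Mrgprd (non-peptidergic nociceptors), Mrgpra3 (itch-related neurons), Sst with Nppb (another itch-related class), Tafa4 (C-fibre low-threshold mechanoreceptors) and Trpm8 (cold-sensing neurons). The remaining neurons were split at 50 UMIs of Calca, which encodes calcitonin gene-related peptide, and at 20 UMIs of Nefh, the neurofilament heavy chain of large myelinated neurons. Peptidergic neurons low in Nefh (peptidergic C) were split again at 3 UMIs of Sstr2. Neurons in more than 1 identity gate (34 control, 8 CFA) and in no gate (34 control, 29 CFA) were kept out of the 9 classes. Tac1, a peptide gene not used for the gates, was at 7203 CPM (counts per 1000000 UMIs) in Sstr2- peptidergic C neurons and 417 CPM in Mrgprd neurons of the control library. In the Nefh-high Calca-low class, Ntrk2 and Ntrk3, the receptor genes of myelinated mechanoreceptors, were found in 77.8% and 83.3% of control neurons, and the proprioceptor gene Pvalb in 22.2%. In CFA these shares were 55.6%, 55.6% and 11.1%. Such shares were not particular to the class. In control, Ntrk2 was found in 75.5% and Pvalb in 24.5% of Trpm8 neurons, and Ntrk3 in 98.6% of Tafa4 neurons. The Nefh-high Calca-low class had 18 control and 9 CFA neurons, and it is called by its gate. No cell label of a neuron was shared between the libraries.

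Over all neurons, 2492 Asic1, 2685 Asic2 and 2671 Asic3 UMIs were counted in control and 1122, 1037 and 1148 in CFA, with 1 Asic4 UMI in each. The 3 members with more than 1 UMI were highest in different classes. Asic1 was at its highest level in Trpm8 neurons, Asic2 in Mrgprd, Mrgpra3 and Tafa4 neurons, and Asic3 in peptidergic and Nefh-high neurons. These class patterns were seen in both libraries.

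**Figure D1:**
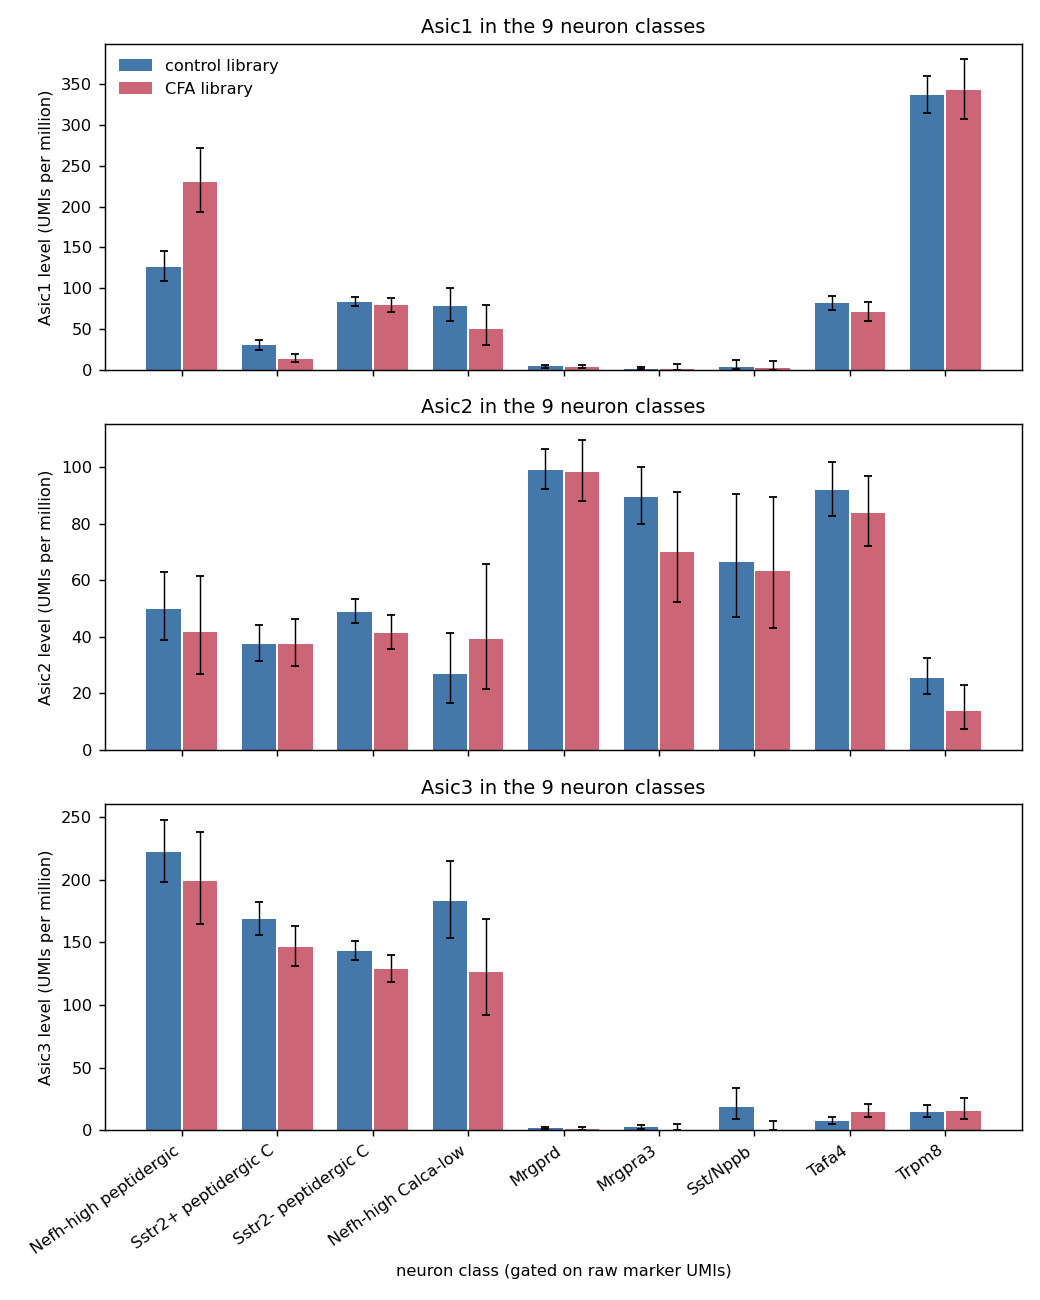
Level of Asic1, Asic2 and Asic3 in CPM (bars from 0) in the 9 neuron classes of the control and CFA libraries, with exact 95% Poisson intervals as error bars. Asic1 was highest in Trpm8 neurons (337 and 343 CPM), Asic2 reached 99.0 and 98.3 CPM in Mrgprd neurons, and Asic3 lay between 126 and 222 CPM in the 4 classes on the left and under 19 CPM in the others.

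Asic1, which encodes the subunit also known widely in the brain, was at 337 CPM (315–360) in the 49 Trpm8 neurons of the control library and 343 CPM (308–380) in the 24 of the CFA library. It was found in 48 of the 49 and 23 of the 24 neurons, with medians of 17 and 13.5 UMIs per neuron. These neurons held 34.9% of all Asic1 UMIs of control neurons with 6.74% of their total UMIs, and 31.1% with 6.12% in the CFA library. The level in the next class, Nefh-high peptidergic neurons, was lower by a log2 ratio of 1.42 (1.18–1.66) in control and 0.57 (0.28–0.87) in CFA. Asic1 was thus a gene of nearly every Trpm8 neuron at this depth.

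Behind the Trpm8 neurons, Asic1 was at 126 CPM (108–146) in the 21 Nefh-high peptidergic neurons of the control library and 230 CPM (194–272) in the 9 of the CFA library. Sstr2- peptidergic C neurons had 83.7 CPM and 79.2 CPM, Tafa4 neurons 81.8 and 71.1 CPM, and Nefh-high Calca-low neurons 78.5 and 50.4 CPM. These 3 classes could not be ordered within counting error in either library. Sstr2+ peptidergic C neurons were lower, at 30.2 CPM (24.9–36.2) and 13.5 CPM (9.10–19.3). In Mrgprd, Mrgpra3 and Sst/Nppb neurons Asic1 was between 1.32 and 4.08 CPM. Gated non-neuronal cells had 3.47 CPM (2.15–5.30) of Asic1 in control and 1.61 CPM (0.44–4.12) in CFA. Those cells were far shallower, with medians of 1622 and 1431 UMIs, against 64070 and 61940 in Mrgprd neurons. At such unlike depths, similar CPM cannot tell background from expression, and the part of free RNA in these low values was not tested. In control Mrgprd neurons, 12 of the 32 Asic1 UMIs were in 1 neuron.

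Equal class levels hid unequal neurons. In Tafa4 neurons, 66 of 70 control and 39 of 43 CFA neurons had an Asic1 UMI, and the middle range of single neurons in control ran from 46.0 to 110 CPM. In Sstr2- peptidergic C neurons, 130 of 265 control and 69 of 135 CFA neurons had 0 UMIs, while 67 and 26 had 5 or more. Thinned to 5000 UMIs each, 85.7% (72.8–94.1) of Trpm8, 32.9% (22.1–45.1) of Tafa4 and 26.3% (21.1–32.1) of Sstr2- peptidergic C control neurons had an Asic1 UMI. In CFA these shares were 79.2%, 20.9% and 23.0%. Before thinning, 98.0%, 94.3% and 50.9% of control neurons of these classes had one. Median depths were then 49540, 54380 and 35680 UMIs in control and 42340, 49570 and 30820 UMIs in CFA, so raw shares differ in part by depth.

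**Figure D2:**
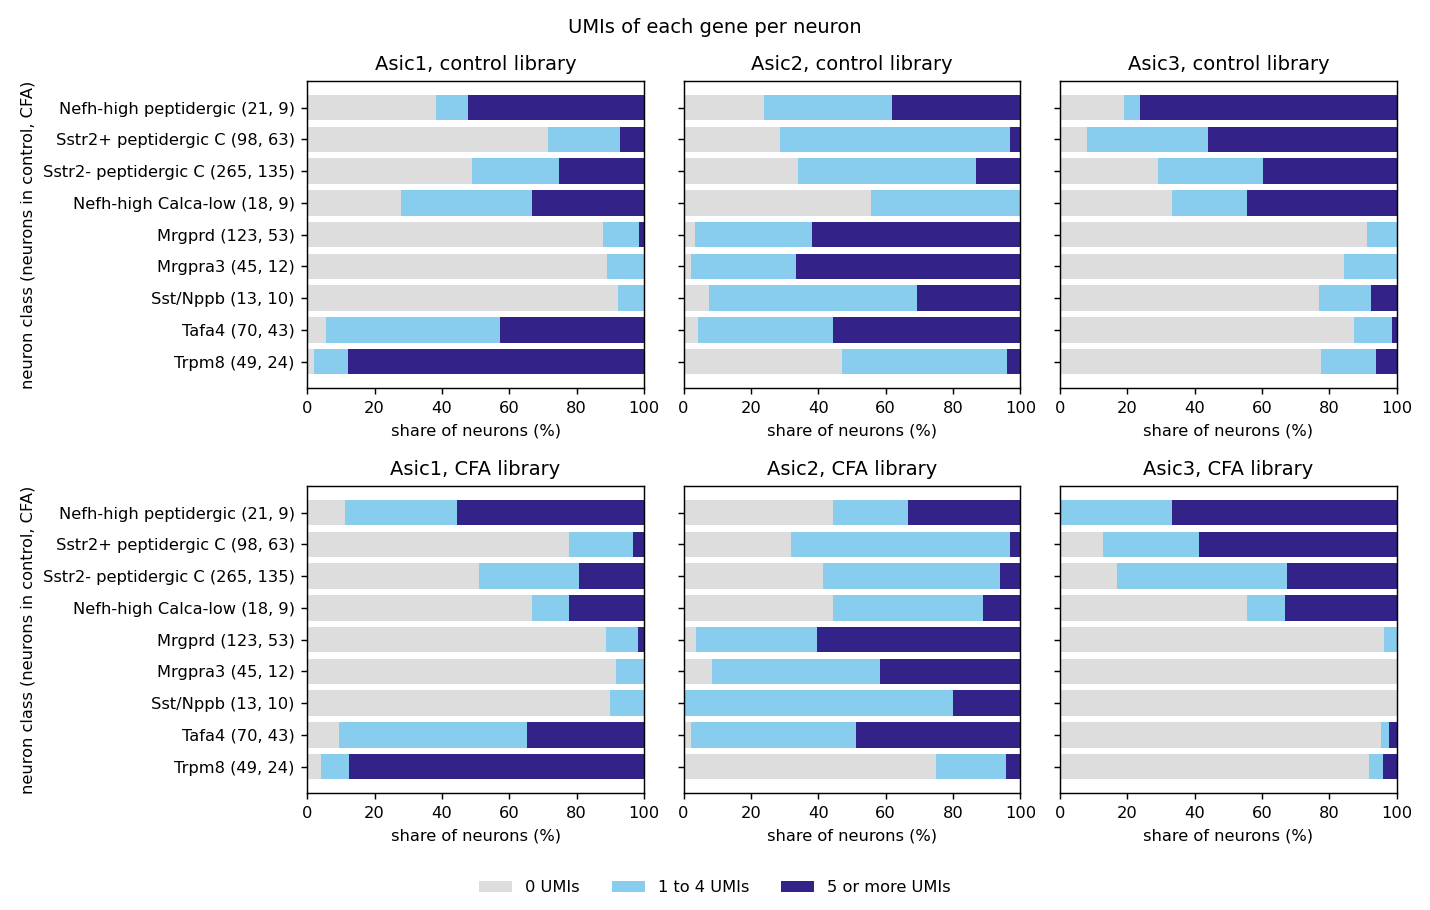
Share of neurons in percent with 0, 1 to 4, or 5 or more UMIs of Asic1, Asic2 or Asic3 in each class (rows), for the control library (top) and the CFA library (bottom), with the number of neurons of each class in brackets. Asic1 reached 5 UMIs in 87.8% of control Trpm8 neurons but 25.3% of Sstr2- peptidergic C neurons, and Asic3 was at 0 in 91.1% of control Mrgprd neurons.

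Asic2 was found in most neurons and in every class. It had a UMI in 586 of 770 control and 271 of 395 CFA neurons. Mrgprd neurons had 99.0 CPM (92.1–106) in control and 98.3 CPM (87.8–110) in CFA, and 119 of 123 and 51 of 53 of them had an Asic2 UMI. Tafa4 neurons had 91.9 and 83.8 CPM, Mrgpra3 neurons 89.5 and 69.8 CPM, and Sst/Nppb neurons 66.3 and 63.2 CPM. Neighbours in this order did not differ beyond counting error in either library. The neurons left out because they passed the Mrgprd and Tafa4 gates together or another pair of gates had 113 CPM (102–125) in 34 control and 139 CPM (113–168) in 8 CFA neurons, and Asic2 was found in all of them. Asic1 was at 1.27 and 1.37 CPM in these neurons, the low level of Mrgprd and not that of Tafa4 neurons.

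The peptidergic classes had less Asic2. Sstr2- peptidergic C neurons were at 48.9 CPM (44.7–53.4) in control and 41.3 CPM (35.6–47.7) in CFA, and Sstr2+ ones at 37.5 and 37.3 CPM. Nefh-high peptidergic neurons had 49.7 and 41.8 CPM, and Nefh-high Calca-low neurons 27.0 and 39.2 CPM from 21 and 14 UMIs. Trpm8 neurons, where Asic1 was highest, were last for Asic2, at 25.5 CPM (19.8–32.5) and 13.7 CPM (7.51–23.1). They stood below the next class beyond counting error in CFA (log2 1.44, 0.61 to 2.37) and not in control (0.08, -0.70 to 0.81). Of the 66 control UMIs in that class, 15 were in 1 neuron.

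Asic3, the subunit gene best known in sensory neurons, had a wide gap between 4 classes and the other 5. In the control library the highest level was 222 CPM (198–248) in Nefh-high peptidergic neurons, followed by 183 CPM (154–215) in Nefh-high Calca-low neurons, 169 CPM (156–182) in Sstr2+ and 143 CPM (136–151) in Sstr2- peptidergic C neurons. In the CFA library the same 4 classes had 199 CPM (165–238), 126 CPM (92–169), 147 CPM (131–163) and 129 CPM (119–140). Of these, the highest stood above its neighbour beyond counting error in CFA (log2 0.44, 0.12 to 0.75) and not in control (0.28, -0.01 to 0.58). Which of the 4 was highest changed with the marker thresholds. With thresholds doubled, Nefh-high Calca-low neurons led in control, with 220 CPM. With thresholds halved, Sstr2+ peptidergic C neurons led in control (190 CPM) and Nefh-high Calca-low neurons in CFA (148 CPM).

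The step below these classes was larger than any step among them. The fifth class was lower by a log2 ratio of 2.94 (2.10–3.95) in control, where it was Sst/Nppb, and of 3.01 (2.15–3.93) in CFA, where it was Trpm8. Mrgprd neurons had 12 Asic3 UMIs in 123 control neurons (1.53 CPM) and 2 in 53 CFA neurons. Mrgpra3 neurons had 8 UMIs in 45 control neurons (2.24 CPM) and 0 in 12 CFA neurons, which allows a share of neurons with an Asic3 UMI of up to 25% (3 counts of the total). Gated non-neuronal cells had 3.80 CPM (2.41–5.70) in control and 1.21 CPM (0.25–3.53) in CFA. Those cells were far shallower, so the comparison cannot tell whether the few UMIs of Mrgprd and Mrgpra3 neurons were background.

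Single neurons made up most of the Asic3 UMIs of Tafa4 neurons in both libraries and of Sst/Nppb neurons in control. In Tafa4 neurons, 21 of 29 control UMIs were in 1 neuron that also had 170 Nefh UMIs, against a class median of 4. In the CFA library 30 of 33 UMIs were in 1 neuron with 100 Nefh UMIs, against a median of 3. Without these neurons the Tafa4 level was 2.03 CPM and 1.41 CPM. In Sst/Nppb neurons, 9 of 11 control UMIs were in 1 neuron with 35 Nefh UMIs, and the 10 CFA neurons had 0, which allows a share of neurons with an Asic3 UMI of up to 30.0%. These neurons were high in Nefh for their class. Trpm8 neurons differed in this. In them, at 14.7 and 15.7 CPM, 11 of 49 control and 2 of 24 CFA neurons had an Asic3 UMI, with up to 10 of 38 and 12 of 16 UMIs in 1 neuron. The 2 control neurons with 10 Asic3 UMIs had 47 and 22 Nefh UMIs against a class median of 63, and 255 and 116 Calca UMIs against a median of 18. The CFA neuron with 12 had 5 Nefh UMIs against 49, and 281 Calca UMIs against 3.5.

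Coexpression of Asic3 with Calca, Trpv1 and Nefh was counted neuron by neuron. Of the 367 Asic3+ control neurons, 89.6% (86.1–92.6) were Calca+, 86.4% (82.4–89.7) were Trpv1+ from at least 3 UMIs, and 12.8% (9.56–16.7) were Nefh+. Among the 403 control neurons without an Asic3 UMI the shares were 52.8%, 43.9% and 12.7%. Of the 199 Asic3+ CFA neurons, 90.5% (85.5–94.2) were Calca+, 88.4% (83.2–92.5) Trpv1+ and 8.04% (4.66–12.7) Nefh+. The shares were 32.7%, 34.2% and 14.3% among the 196 Asic3- CFA neurons. Calca and Trpv1 were thus more common among Asic3+ neurons in both libraries, whereas the intervals of the Nefh+ shares overlapped.

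Most Asic3+ neurons had Calca and Trpv1 together. This was so in 83.9% of Asic3+ against 35% of Asic3- control neurons, and in 85.4% against 23.0% of CFA neurons. Only 3.00% of Asic3+ control and 3.52% of Asic3+ CFA neurons had none of the 3 markers, against 30.5% and 45.9% of Asic3- neurons. Asic3 was also called after thinning each neuron to 5000 UMIs, with the markers still called from all UMIs. Then 87.1% of 178 Asic3+ control and 84.5% of 103 Asic3+ CFA neurons had Calca and Trpv1. Of the neurons without an Asic3 UMI after thinning, 293 of 586 in control and 128 of 290 in CFA had both. The contrast was thus smaller than before thinning, mainly by a higher share among the neurons without an Asic3 UMI. Neurons whose Asic3 UMIs were not drawn had moved into that group, which numbered 403 and 196 before thinning. All 3 markers were present in 5.72% and 3.02% of the Asic3+ neurons before thinning.

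The levels followed the same lines. Asic3 was at 89.4 CPM (85.9–93.0) in the 542 Calca+ and 19.1 CPM (16.6–21.9) in the 228 Calca- control neurons, which gave a log2 ratio of 2.23 (2.02–2.44). In CFA it was at 105 CPM (98.7–112) in 244 and 15.9 CPM (13.0–19.2) in 151 neurons, a log2 ratio of 2.72 (2.43–3.02). At least a 2-fold higher level in Calca+ neurons was seen for 6.55% of 13610 genes in control and 6.51% of 11898 in CFA. Among the 3 members with enough UMIs only Asic3 passed this size, and 1.87% and 1.45% of genes had a higher ratio. Calca outside the neurons differed between the libraries, with 280 CPM in gated non-neuronal cells of control and 82.5 CPM in CFA. The part of this in the difference between libraries was not tested. When the threshold was set in CPM instead, the log2 ratios were 3.05 in control and 3.06 in CFA.

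For Trpv1 the log2 ratio was 2.37 (2.2–2.54) in control, from 104 and 20.1 CPM, and 2.49 (2.24–2.75) in CFA, from 109 and 19.5 CPM. Trpv1 was also found where Asic3 was low, as in Sst/Nppb neurons, which had medians of 21 and 22 Trpv1 UMIs. In neurons with Trpv1 but neither Calca nor Nefh, Asic3 was at 9.64 CPM (5.71–15.2) in control and 16.3 CPM (9.31–26.4) in CFA. In neurons with Calca but neither Trpv1 nor Nefh it was at 13.5 and 12.6 CPM, and 42 of the 70 control UMIs there were in 1 neuron. These neurons were deep, with medians of 71510 and 65330 UMIs, against 39640 and 32880 with Calca and Trpv1 but without Nefh. They had 101 and 115 CPM of Asic2 and 2.89 and 3.70 CPM of Asic1, near the levels of Mrgprd neurons. The part of depth and make-up in their low Asic3 level was not tested. Neurons with both but without Nefh had 110 CPM (105–114) and 121 CPM (113–129). This group made up 54.4% and 52.2% of neurons and held 76.5% and 78.7% of the Asic3 UMIs.

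Nefh split the Asic3 neurons in another way. Over all neurons, Asic3 was at 80.2 CPM in Nefh+ and 67.5 CPM in Nefh- control neurons, a log2 ratio of 0.25 (0.11–0.39), and at 82.1 and 66.7 CPM in CFA, a ratio of 0.30 (0.07–0.52). With the Nefh threshold halved the ratios were -0.12 (-0.23 to -0.00079) and -0.045 (-0.23 to 0.13), so the direction depended on the threshold. The Nefh+ neurons were of unlike kinds, which was examined after these values were seen. The 39 Nefh+ Trpm8+ control neurons had 13.9 CPM (9.54–19.7) of Asic3 and the 59 Nefh+ Trpm8- neurons 116 CPM (106–126). In CFA the 20 Nefh+ Trpm8+ neurons had 0 Asic3 UMIs (interval up to 4.10 CPM), and the 24 Nefh+ Trpm8- neurons had 131 CPM (113–150). Asic1 had the opposite pattern, at 353 against 62.7 CPM in control and 361 against 120 CPM in CFA.

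**Figure D3:**
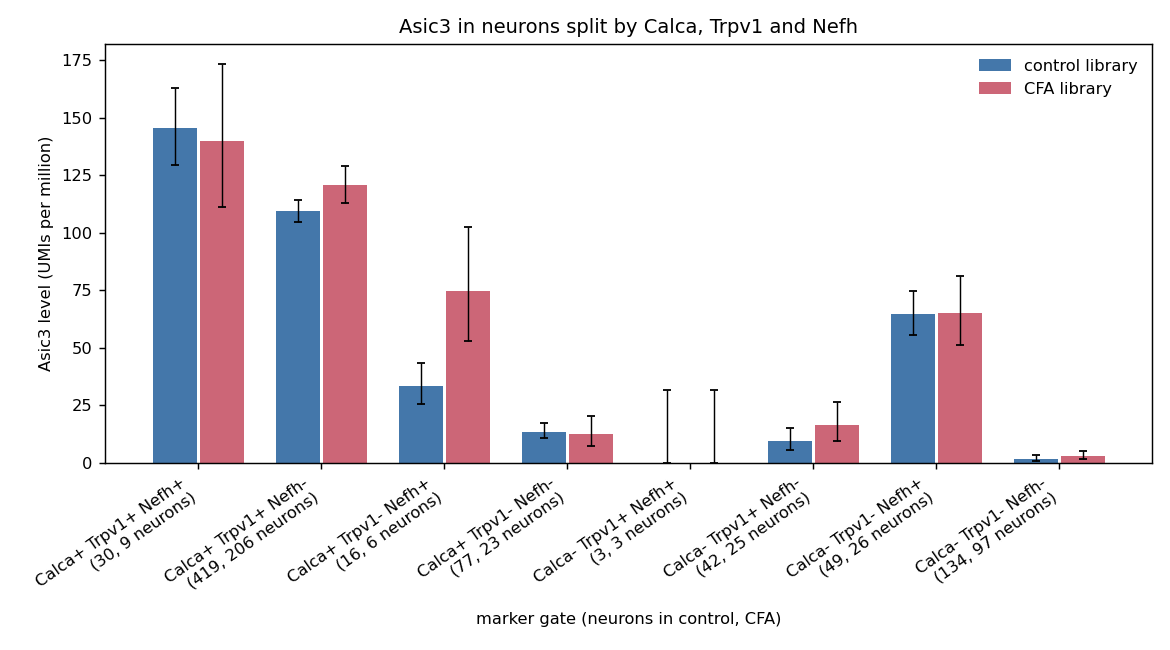
Asic3 level in CPM (bars from 0, exact 95% Poisson intervals) in neurons split by Calca, Trpv1 and Nefh into 8 groups, with the number of neurons of both libraries under each. Neurons with Calca and Trpv1 had 110 to 146 CPM, neurons with Nefh alone 64.5 and 65.0 CPM, and neurons with none of the 3 markers 1.82 and 2.94 CPM.

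Nefh-positive neurons without Calca and Trpv1 held Asic3 at 64.5 CPM (55.4–74.8) in 49 control neurons and 65.0 CPM (51.4–81.1) in 26 CFA neurons. Fewer neurons carried it there, 18 of 49 and 6 of 26, with up to 37 and 30 UMIs in 1 neuron. Asic1 was at 257 and 260 CPM in the same neurons. Their level of Asic3 is thus a mean over unlike neurons, and the share of Trpm8 neurons among them was not counted. Neurons with none of the 3 markers had 1.82 CPM (0.91–3.26) and 2.94 CPM (1.56–5.02), near the CPM of the far shallower non-neuronal cells.

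As a description across single neurons thinned to 5000 UMIs, Spearman's rho of Asic3 with Calca was 0.36 over 764 control and 0.30 over 393 CFA neurons, and with Trpv1 0.28 in both. With Nefh it was 0.01 and -0.06. Neurons of a library share its free RNA, and these values carry no test. Inside Sstr2- peptidergic C neurons, rho of Asic3 with Calca was 0.03 and -0.03, with Trpv1 -0.03 and 0.06, and with Nefh -0.07 and -0.21. These values came from few UMIs per neuron. 

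The members were also counted together. Asic2 alone was found in 98 of 123 control and 45 of 53 CFA Mrgprd neurons. In Tafa4 neurons the commonest set was Asic1 with Asic2 and without Asic3, in 55 of 70 and 37 of 43 neurons. In Trpm8 neurons it was Asic1 alone or Asic1 with Asic2, in 37 of 49 and 22 of 24. In Sstr2+ peptidergic C neurons, Asic2 with Asic3 and without Asic1 was found in 47 of 98 and 29 of 63. All 3 members were found together in 107 of 770 control and 44 of 395 CFA neurons, and none in 29 and 9. These sets follow the classes, and a gene with 0 UMIs in a neuron may be missed at this depth.

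Asic4, whose product is not known to be gated by acid, had 1 UMI in 770 control neurons, in an Mrgpra3 neuron, and 1 in 395 CFA neurons, in a Tafa4 neuron. With 38327360 and 16646653 UMIs summed over neurons, this is 0.026 CPM (0.00066–0.15) and 0.060 CPM (0.0015–0.33). Asic5, the gene of a bile acid-sensitive relative, also had 1 UMI in both libraries. The subunit genes of the epithelial sodium channel, Scnn1a, Scnn1b and Scnn1g, had at most 14 UMIs each, too few for a ratio. Outside the neurons, 2 Asic4 UMIs were found in 341 CFA fibroblasts, both in 1 cell, and 0 in the 3116 gated non-neuronal control cells.

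Few UMIs of the members were found in non-neuronal cells. Gated fibroblasts, endothelial, immune, oligodendrocyte-like, satellite glial and Schwann cells together had 21 Asic1, 20 Asic2 and 23 Asic3 UMIs in 3116 control cells, and 4, 4 and 3 UMIs in 1345 CFA cells. For every 100 Tubb3 UMIs the control non-neuronal cells had 5.25 Asic3 UMIs (3.33–7.88) and control neurons 3.48 (3.35–3.61), where the non-neuronal cells had been chosen with fewer than 2 Tubb3 UMIs. In CFA these were 3.26 (0.67–9.53) and 3.48 (3.28–3.69). With each cell thinned to 500 UMIs, 1 of 760 control satellite glial cells (0.13%) and 29 of 770 control neurons (3.77%) had an Asic3 UMI. Median depths before thinning were 2237 and 45930 UMIs.

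Between the conditions, the members were close in all neurons together. Asic1 was at 65.0 CPM (62.5–67.6) in control and 67.4 CPM (63.5–71.5) in CFA, a log2 ratio of CFA over control of 0.05 (-0.05 to 0.15). Asic3 was at 69.7 CPM (67.1–72.4) and 69.0 CPM (65.0–73.1), a ratio of -0.02 (-0.12 to 0.09). Asic2 was lower in the CFA library, at 70.0 CPM (67.4–72.8) and 62.3 CPM (58.6–66.2), a ratio of -0.17 (-0.27 to -0.07). Of 14474 genes with at least 50 UMIs, 4.44% were at least 1.5-fold higher and 4.64% at least 1.5-fold lower in CFA, and none of the 3 members with enough UMIs was. For Asic2, 74.4% of genes had a higher ratio. With the same class weights in both libraries the ratios were -0.01 for Asic1, -0.09 for Asic2 and -0.16 for Asic3.

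**Figure D4:**
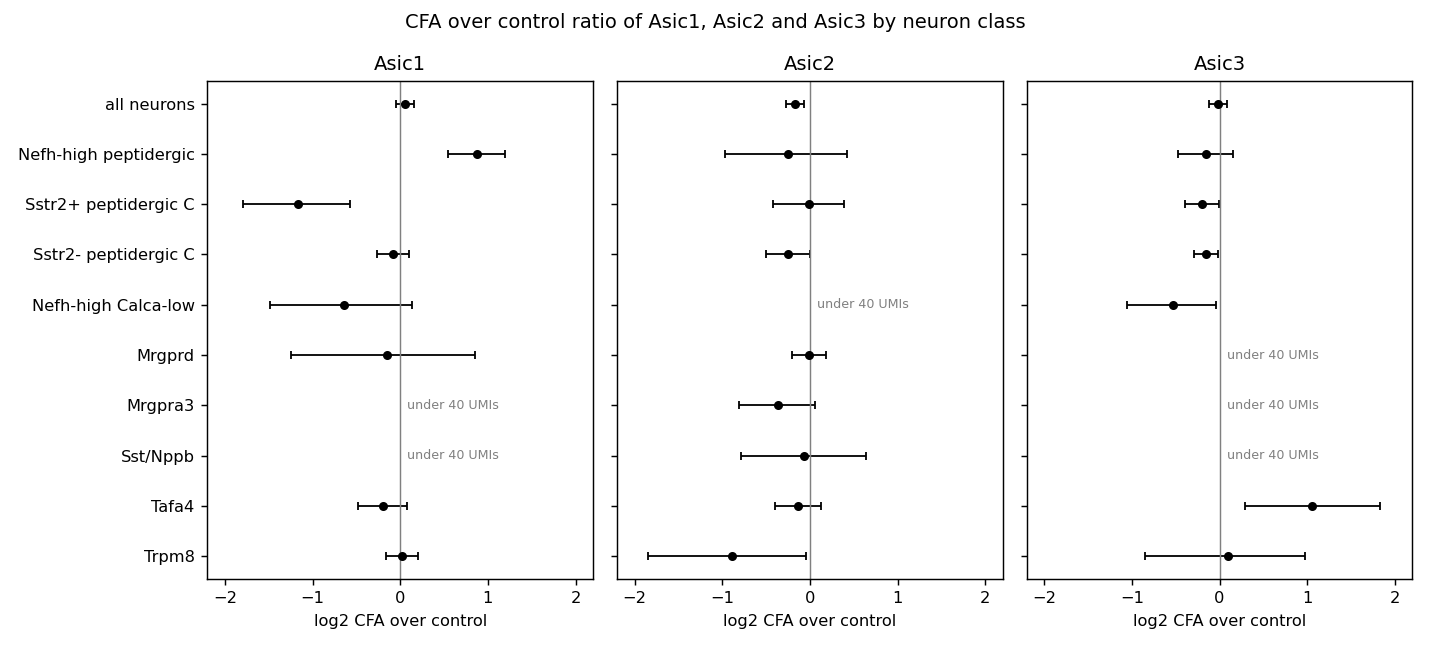
Log2 ratio of the CFA over the control library for Asic1, Asic2 and Asic3 in all neurons and in each class with at least 40 UMIs in all (points), with conditional exact 95% intervals for counting error (bars), from 1 library per condition. Over all neurons the ratios lay between -0.17 and 0.05, and single classes ran from -1.16 for Asic1 in Sstr2+ peptidergic C neurons to 1.06 for Asic3 in Tafa4 neurons, where 1 neuron held most UMIs in both libraries.

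Inside the classes, the summed Asic1 level differed in opposite directions in 2 peptidergic classes. In Nefh-high peptidergic neurons it was at 126 CPM in 21 control and 230 CPM in 9 CFA neurons, a log2 ratio of 0.87 (0.54–1.20), and at 0.84 (0.46–1.21) without the neuron with the most UMIs in each library. In Sstr2+ peptidergic C neurons it was at 30.2 CPM in 98 control and 13.5 CPM in 63 CFA neurons, a ratio of -1.16 (-1.79 to -0.57), and of -1.21 (-1.96 to -0.52) without such neurons. The 115 control UMIs of the latter came from 28 neurons and the 30 CFA UMIs from 14. Among Nefh-high peptidergic neurons, 13 of 21 control and 8 of 9 CFA neurons had an Asic1 UMI. There, 11 and 5 neurons had 5 or more, with medians of 5 and 6 UMIs. Levels of single neurons had medians of 64 and 90 CPM, with middle ranges of 0 to 277 and 51.4 to 409 CPM. The interval of the ratio does not measure this spread between neurons. Other genes differed in the Nefh-high peptidergic gate too, with Tac1 at 5307 CPM in control and 2480 CPM in CFA, the peptide gene Adcyap1 at 1102 and 429 CPM, Nefh at 517 and 790 CPM and Nefm at 1302 and 1998 CPM. The part of this make-up in the Asic1 ratio was not tested. In Trpm8 neurons the ratio was 0.03 (-0.16 to 0.21) and in Sstr2- peptidergic C neurons -0.08 (-0.26 to 0.10).

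The summed Asic3 level was somewhat lower in the CFA library in the 4 classes that hold it, by an amount that depended on which single neurons were counted. The log2 ratio was -0.16 (-0.48 to 0.15) in Nefh-high peptidergic, -0.20 (-0.40 to -0.01) in Sstr2+ peptidergic C, -0.15 (-0.29 to -0.01) in Sstr2- peptidergic C and -0.54 (-1.05 to -0.04) in Nefh-high Calca-low neurons. Without the control neuron with the most UMIs, these were -0.00089 (-0.32 to 0.32), -0.16 (-0.36 to 0.03), -0.12 (-0.26 to 0.02) and -0.23 (-0.77 to 0.28), and every interval then included 0. Leaving out the top neuron of control alone raised the ratio in all 4 classes, since it removed a high value from the control side only. Without the top CFA neuron alone, the ratios in the same order were -0.39 (-0.75 to -0.04), -0.24 (-0.44 to -0.04), -0.21 (-0.36 to -0.07) and -1.33 (-2.015 to -0.70). Every interval then lay below 0, as a high value was removed from the CFA side only. Without the top neuron of each library, the ratios were -0.23 (-0.60 to 0.12), -0.20 (-0.40 to -0.0020), -0.18 (-0.32 to -0.03) and -1.02 (-1.73 to -0.37). Only the interval of Nefh-high peptidergic neurons then included 0. The share of Sstr2- peptidergic C neurons with an Asic3 UMI was higher in CFA, 83.0% (75.5–88.9) against 70.9% (65.1–76.3), and 37.8% against 36.3% with neurons thinned to 5000 UMIs. In Tafa4 neurons the ratio of 1.06 (0.29–1.83) became -0.53 (-3.08 to 1.53) without the top neuron of each library. For Asic2, the ratio was -0.01 (-0.20 to 0.18) in Mrgprd and -0.13 (-0.40 to 0.12) in Tafa4 neurons. In Trpm8 neurons it was -0.89 (-1.84 to -0.05). It was -0.60 (-1.57 to 0.28) without the top control neuron alone and -1.46 (-2.65 to -0.45) without the top CFA neuron alone. Without the top neuron of each library it was -1.17 (-2.38 to -0.13), from 51 control and 9 CFA UMIs.

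Other genes of acid sensing were described from lists. Of 10 proton-sensing channels and receptors, 7 had enough UMIs, 1 was at least 1.5-fold higher in CFA (4.44% of all genes) and 0 lower (4.64% of all genes), with a median log2 ratio of -0.05 beside -0.0014 over all genes. The higher gene was Kcnk3, which encodes a potassium channel closed by acid, at 49.0 CPM (46.8–51.3) in control and 88.2 CPM (83.8–92.9) in CFA, a ratio of 0.85 (0.75–0.95). Trpv1 was at 272 and 260 CPM (-0.06, -0.12 to -0.01). Kcnk9, a relative of Kcnk3, shared its highest class with Asic1, at 74.3 and 68.7 CPM in Trpm8 neurons.

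Of 10 genes of proteins that bind or regulate ASICs, 9 had enough UMIs. Of these, 0 were at least 1.5-fold higher and 0 lower in CFA, beside 4.44% and 4.64% of all genes. Their median log2 ratio was -0.14, beside -0.0014 over all genes. Stoml1, of the stomatin family that modulates ASICs, was at 101 and 85.1 CPM (-0.24, -0.33 to -0.15), with its highest level in Mrgprd neurons (148 and 129 CPM). S100a10, which encodes the annexin partner p11, was at 962 and 1018 CPM (0.08, 0.05 to 0.11). Stoml3 had 5 and 3 UMIs. Of 6 genes of lactate and proton transport, 0 were at least 1.5-fold higher and 1 lower, beside 4.44% and 4.64% of all genes, with a median of 0.11 beside -0.0014. The lower one was the lactate exporter gene Slc16a3, with 134 and 38 UMIs (-0.61, -1.18 to -0.09).

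The genes whose levels over the classes were most like those of each member were ranked by Pearson's r of log2(CPM + 1). This used 14 points, 7 classes with at least 10 neurons in both libraries, and 9479 genes, so the 2 Nefh-high classes had no part in it. For Asic1 the first 5 were Grin1 (r = 0.96), which encodes the NMDA receptor subunit, Dlg2, Slc2a13, Lhfpl5 and Fkbp4. For Asic2 they were Fxyd2 (r = 0.98), a sodium pump subunit gene, Acly, Dock11, Pde6d and Brdt. For Asic3 they were Gtf2ird1 (r = 0.97), Syt16, Kcnk3 (r = 0.95), Pip5k1b and Htr1b, a serotonin receptor gene. The points share libraries and r carries no test.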

How the data were processed

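Single cells of the TG were profiled with BD Rhapsody whole transcriptome libraries, 1 per condition. The deposited values are raw UMI counts per gene and cell, not normalized by the authors. The labels name fastp and GRCm38. The counting step and annotation are not given in the sources used here. Totals were 48916096 UMIs in 7298 control cells and 22096268 UMIs in 4080 CFA cells.

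Cells with at least 150 genes and at most 25% mitochondrial UMIs were kept (6695 and 3661). Neurons and classes were gated as described in the report. Non-neuronal cells needed fewer than 2 Tubb3 UMIs and a marker of 1 non-neuronal type (such as Dcn, Flt1, Ptprc, Mog or Fabp7). Some items are not reported here. Near the thresholds lay 146 control and 59 CFA neurons for Calca (25 to under 100 UMIs) and 174 and 82 for Nefh (10 to under 40 UMIs). Gated non-neuronal cells had 72.3 CPM of Tubb3 in control and 37.0 CPM in CFA. No doublet caller was run. Neurons in more than 1 identity gate were left out of the classes, and 7 glial and other non-neuronal genes took 0.047% and 0.034% of neuron UMIs. The libraries shared 27 cell labels, none of neurons.

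UMIs were summed over neurons, with exact Poisson intervals for CPM, Clopper-Pearson intervals for shares and conditional exact binomial intervals for ratios. Neurons were thinned to 5000 UMIs (6 control and 2 CFA neurons were shallower) or, beside other cells, all to 500 UMIs. The ratio intervals were tested on simulated gene sums drawn with counting error only. This gave no check on the spread between neurons or mice. Python 3.11.15, numpy 2.4.6, scipy 1.17.1 and pandas 2.3.3 were used.

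The members and lists were chosen with earlier results of these data known. Named genes were the members, the gate genes, the lists and the 5 genes most like each member. Alternatives were stricter and looser filters, other thresholds, other totals and weights, and thinning. The authors' comparisons were not used.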

Additional observations from a re-analysis of the deposited data

How the results depend on the processing

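Of 152 values recomputed with another setting, 109 moved by less than the counting error or, for counts, by less than 1.5 times. The CFA over control ratios of Asic1 and Asic2 in all neurons stayed within their intervals with every setting tried, and that of Asic3 did so except with the same class weights in both libraries (-0.16).

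For Asic3 by Calca in control, the log2 ratio was 2.54 with every neuron weighted equally, 2.60 thinned to 5000 UMIs, 2.45 with thresholds doubled, 1.73 halved and 3.05 as CPM. In CFA it was 3.03 with the stricter filter, 2.26 weighted equally, 1.79 thinned, 2.23 halved and 3.06 as CPM. By Trpv1 in control it was 2.56 with the stricter filter, 2.06 weighted equally, 2.60 doubled, 2.18 halved and 2.87 as CPM, and in CFA 1.76 weighted equally and 1.42 thinned. By Nefh in control it was 0.025 weighted equally, 0.051 thinned, 0.081 doubled and 0.46 as CPM, and it turned to -0.12 with thresholds halved. In CFA it turned to -0.045 with thresholds halved.

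Asic1 in control Trpm8 neurons was at 312 CPM weighted equally. Asic3 in Nefh-high peptidergic neurons was at 113, 171 and 284 CPM in control with thresholds doubled, halved and as CPM, and at 142 CPM in CFA with thresholds halved. The share of Calca+ neurons with an Asic3 UMI, 30.1% in control and 37.3% in CFA thinned to 5000 UMIs, was 15.6% and 13.9% from 2 UMIs, 15.3% and 19.3% thinned to 2000 UMIs, and 60.7% and 73.8% without thinning.

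The counts of genes past the fold sizes followed the UMI minimum. With at least 10 UMIs, 2090 genes were higher and 1955 lower in CFA, and 1739 control and 1472 CFA genes were higher in Calca+ neurons. With at least 200 UMIs these were 206, 259, 493 and 400. Leaving out neurons in no gate and leaving out the neuron with the most UMIs were alternatives chosen after seeing the data. No paired analysis was possible because each condition has 1 library. In the smallest classes, with 9 to 13 neurons in a library, the number of neurons limits the precision.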

Other observations

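The Sstr2- peptidergic C neurons with 5 or more Asic1 UMIs differed from those with 0 in other genes. This split, and the choice of the genes looked at, was made after the Asic1 values were seen. Trpa1, which encodes an irritant-gated channel, was at 923 CPM (889–957) in the 67 Asic1-high and 258 CPM (243–273) in the 130 Asic1-negative control neurons, a log2 ratio of 1.84 (1.74–1.94). In the CFA library it was at 869 CPM (815–925) in 26 and 275 CPM (254–298) in 69 neurons, a ratio of 1.66 (1.51–1.81). Asic3 was lower in the Asic1-high neurons, at 108 against 184 CPM in control (-0.76, -0.95 to -0.58) and 104 against 147 CPM in CFA (-0.50, -0.82 to -0.19). Tac1 was higher in them by a log2 ratio of 0.44 in control and 0.45 in CFA, and Calca was close (-0.13 and -0.02). Asic1-high neurons were deeper, with medians of 42640 against 32580 UMIs in control and 38130 against 29340 UMIs in CFA, and the part of depth in these values was not tested with this split. Over neurons of the class thinned to 5000 UMIs, Spearman's rho of Asic1 with Asic3 was -0.15 in 262 control and 0.01 in 135 CFA neurons, a description with no test. In the gated Trpm8 neurons Pvalb was found in 24.5% of control and 25% of CFA neurons, at 173 and 161 CPM.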
